A study of Mus musculus with 6 samples.

Results

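This account covers 34 genes that carry glucose into the cell and through glycolysis and the pentose phosphate branch, listed by name and step and followed across 3 natural killer (NK) cell subsets. Of the 34, 30 had at least 1 probe set of their own among the 18193 genes compared. Gapdh was read only by the array's own control probe sets, and Gpi1, Eno1 and G6pdx were not analysed here because no probe set bore their symbol alone in the array annotation. The 30 genes had 63 probe sets, 16 genes having several and 14 having 1. Where a gene had several, the brightest on average stood for it. Names of the probe sets used for Slc2a3, Hk3, Aldoa, Tpi1, Pgk1, Pgd and Tkt mark possible matches to other transcripts. A subset mean above 6.35 on the log2 scale, the 95th percentile of 46 genes of other tissues, counted as above background. By that measure 25 of the 30 genes were above background in at least 1 subset, and Pfkfb4, Fbp1, Aldoc, Eno2 and Pdk2 were not.

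NK1.1+ cells came from the spleens of RAG-/- mice, animals without mature T and B cells, and every group shared that genotype. Sorting gave a CD27+CD11b- subset, a double-positive CD27+CD11b+ subset and a CD27-CD11b+ subset, commonly read as successive maturation stages and called first, middle and last below. Each gave RNA for 2 arrays, 6 in all. The labels give no age, sex, treatment, number of mice or RAG gene, and nothing says that the 2 arrays of a subset stem from different animals. The p-values therefore weigh differences against a spread between samples that may be technical only. All values are log2 expression values, means are ± SD over n = 2 arrays, and differences carry the standard error (SE) of a limma fit to all 6 arrays. "Passed" means an adjusted p under 0.05 over all genes.

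Glucose enters lymphocytes through facilitative transporters, is trapped by hexokinase, committed to glycolysis by phosphofructokinase and ends as pyruvate, which becomes lactate or enters mitochondria through pyruvate dehydrogenase. Pyruvate dehydrogenase kinases (PDK) close that last gate by phosphorylating the complex. The pentose phosphate branch leaves at glucose 6-phosphate and yields NADPH and ribose. Several steps are served by isoenzymes from separate genes, and activated NK cells are known to raise glucose uptake and glycolysis.

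The 11 NK cell markers averaged 11.84 and 11.67 in the first subset, 12.31 and 12.19 in the middle and 12.59 and 12.49 in the last, and 3 of them (Gzmb, Prf1 and Tbx21) passed higher in the last than in the first. T cell markers, 3 of 7 above background, averaged 6.21 and 5.89, then 5.99 and 5.51, then 5.30 and 5.37, and 1 passed lower (Cd3d, -2.38). B cell markers, 1 of 5 above background, averaged 5.73 and 5.47, then 5.10 and 5.01, then 5.08 and 4.88, and 1 passed lower (Cd22, -2.21). Among 6 platelet markers 1 passed higher (Gp1bb, 3.51). Over all genes, 2.24% passed higher and 1.15% passed lower in the last than in the first subset. The part of these lists in the results below was not tested. The sort text of CD27-CD11b+ replicate 1 names another gate than its title. The array was grouped by title, and its Cd27 of 6.96 and Itgam of 9.93 lay next to the 6.47 and 9.44 of replicate 2. Monocyte and macrophage transcripts were present, with 13 of 19 measured markers above background, Csf1r between 8.41 and 10.72 and Lyz2 between 6.80 and 8.96. That list averaged 5.89 and 7.11 on replicates 1 and 2 of the first subset, 6.65 and 7.41 on those of the middle and 7.35 and 6.51 on those of the last. The arrays also divided by 3 unnamed probe sets. These averaged 12.57 to 12.81 on replicate 2 of the first and middle subsets and replicate 1 of the last (the "on" arrays). On the other 3 (the "off" arrays) they averaged 4.33 to 4.47. The monocyte and macrophage list was higher on the on array of every subset, at 7.11, 7.41 and 7.35 against 5.89, 6.65 and 6.51. The neutrophil list, 5 of 9 above background, was too, at 6.98, 7.26 and 7.08 against 5.90, 6.41 and 6.44. The part of myeloid transcripts in the division was not tested. Each side holds 1 array of every subset, so comparisons are also given within both sides and with this division as a block.

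Gapdh, the glyceraldehyde 3-phosphate dehydrogenase, was read at its 3' end at 12.01 ± 0.23 in the first, 12.06 ± 0.34 in the middle and 11.83 ± 0.12 in the last subset. At its 5' end the means were 8.87 ± 0.53, 9.22 ± 0.64 and 9.19 ± 0.07. The 5' minus 3' difference, a measure of how intact the labelled RNA was, averaged -3.14, -2.84 and -2.64 in that order. It was lowest, at -3.35 and -3.05, in replicate 2 of the first 2 subsets, and between -2.93 and -2.60 in the other 4 arrays. The same difference for Actb averaged -1.97, -1.47 and -0.98. On average, signal toward the 5' end was stronger in the CD11b+ subsets, with overlapping arrays in the first step, and its part in the results below was not tested.

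Between the least and the most mature subset, CD27+CD11b- and CD27-CD11b+, Hk1 and Pfkl rose and Pdk1 fell, and the other 27 measured genes did not pass. These 3 of 30 genes stand beside 3.39% of all genes that passed in this comparison. Genes that passed higher in CD27-CD11b+ made up 2.24% of all genes, and genes that passed lower there 1.15%. The 30 genes as a list had a median difference of -0.05, against -0.0055 for all genes tested. Among off and on arrays the list's median was -0.12 and 0.18, against -0.05 and 0.07 for all genes. Arrays of the outer subsets did not overlap for 16 genes, 8 higher in CD27-CD11b+ (26.9% of all genes) and 8 lower (24.3%), which is near the background. Without CD27+CD11b- replicate 2 or without CD27-CD11b+ replicate 1 only Pdk1 passed, beside 1.63% and 0.462% of all genes. With the division as a block 7 of the 30 passed, beside 8.13% of all genes: Slc2a3, Hk1, Pfkl and Pkm higher in CD27-CD11b+, and Hk2, Hk3 and Pdk1 lower.

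**Figure D1:**
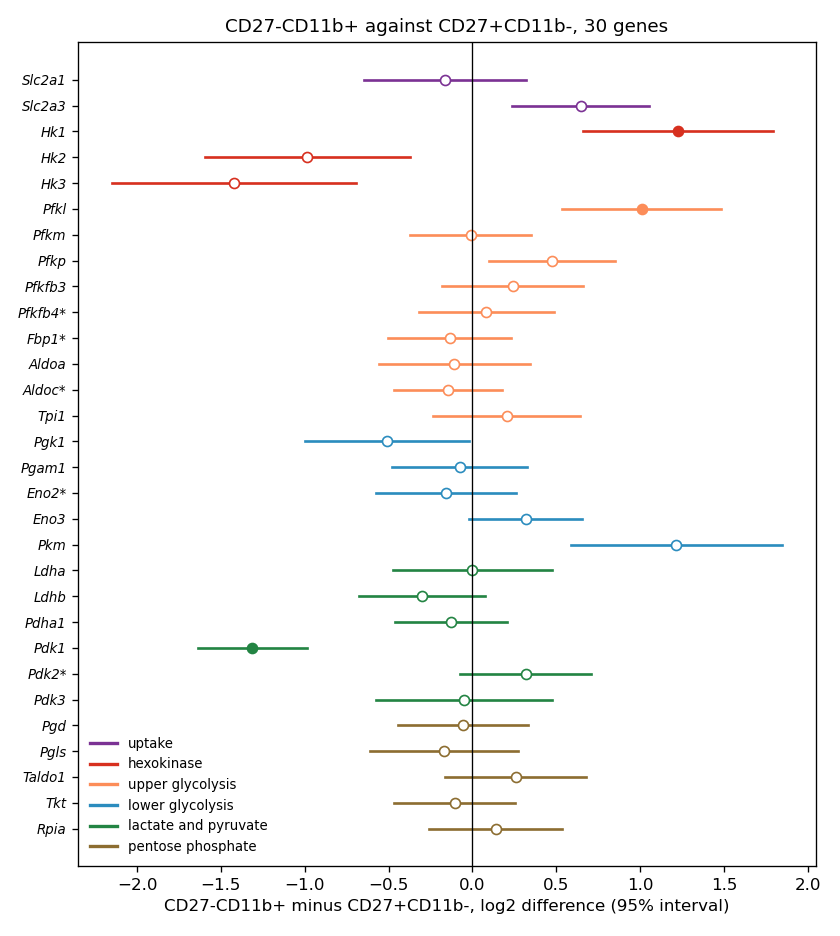
Differences between CD27-CD11b+ and CD27+CD11b- for the 30 measured genes, in log2 units on the horizontal axis, ordered and coloured by step of the pathway. Points are estimates from 2 arrays a subset, bars are 95% intervals of the limma fit, filled points are the 3 genes that passed, and an asterisk marks a gene under the background level in every subset. Hk1 and Hk2 lie on opposite sides of 0, Pdk1 has the narrowest interval of the genes far from 0, and most genes from Aldoa to Rpia lie near 0.

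In each single step no gene passed. From CD27+CD11b- to CD27+CD11b+, 0 of 30 genes passed in limma, and 0.121% of all genes passed. At an unadjusted p under 0.05 there were 3 of 30, against 690 of all 18193. From CD27+CD11b+ to CD27-CD11b+, 0 of 30 passed in limma, and 0.297% of all genes passed. At an unadjusted p under 0.05 there were 6 of 30, against 2027 of all 18193. With the division as a block Pdk1 passed in the second step, beside 1.63% of all genes. The median differences of the list were 0.02 and 0.03 in these steps, against -0.0074 and 0.02 over all genes. The second step's median was -0.18 within the off arrays and 0.23 within the on arrays, against -0.04 and 0.09 over all genes. No difference between the steps was called: 0 of 30 genes passed the limma test of the second step minus the first, and 0.0055% of all genes passed. At an unadjusted p under 0.05 there were 0 of 30, against 547 of all 18193. Pdk1 alone passed the F test over the 3 subsets, which 1.35% of all genes passed.

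Pdk1 encodes a kinase that inactivates pyruvate dehydrogenase and is a known target of hypoxia-inducible factors. It read 8.31 and 8.34 in the first subset, 7.88 and 7.90 in the middle and 7.07 and 6.96 in the last. All 6 arrays lay in the order of the subsets with no overlap, a full falling order shared by 2.88% of all genes. The outer difference was -1.31 (SE 0.14, adjusted p = 0.00402), which is 2.49-fold lower in CD27-CD11b+. It split into -0.43 (SE 0.14, not passing) in the first and -0.88 (SE 0.14, adjusted p = 0.0615) in the second step. Within the off arrays the outer difference was -1.36 and within the on arrays -1.27. A second probe set read 8.54 and 8.52, then 7.50 and 7.83, then 6.77 and 6.56, a difference of -1.87, and passed when each probe set was tested on its own (adjusted p = 0.0138). Another probe set, above background on average only in the first subset (6.66), differed by -0.91 and did not pass. The size of that difference is not exact. The last probe set was under background in every subset.

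Cell cycle transcripts were lower in the same direction. Averaged over 30 measured cell cycle genes, replicates 1 and 2 read 8.73 and 7.57 in the first subset, 8.29 and 7.14 in the middle and 6.83 and 7.01 in the last. Their median outer difference was -1.41, with -1.99 among off and -0.68 among on arrays. Of the 30, 24 had all last-subset arrays below all first-subset arrays, beside 24.3% of all genes. The proliferation marker Mki67 passed, at -2.76, as 1 of 30 beside 1.15% of all genes. With the division as a block 16 of 30 passed lower, while 515 of all 18193 genes passed lower. The part of cell cycle activity in the fall of Pdk1 was not tested.

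No other gene at the exit from glycolysis passed. Pdk3, a second kinase of this family, read 7.66 and 7.62, then 7.42 and 7.64, then 7.93 and 7.24, a difference of -0.05 with a 95% interval of -0.58 to 0.48. Its arrays overlapped in every comparison. Pdk2 stayed between 4.83 and 5.36, under background. Pdha1, the catalytic subunit of pyruvate dehydrogenase that these kinases phosphorylate, was 10.03 ± 0.10, 9.91 ± 0.06 and 9.91 ± 0.04, with an outer interval of -0.46 to 0.21. Ldha, the main lactate dehydrogenase of lymphocytes, was 11.08 ± 0.15, 11.09 ± 0.39 and 11.08 ± 0.09, with an outer interval of -0.47 to 0.47. Ldhb, the form common in oxidative tissue, was 6.98 ± 0.09, 6.58 ± 0.13 and 6.68 ± 0.19, and did not pass at -0.30 (SE 0.16).

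**Figure D2:**
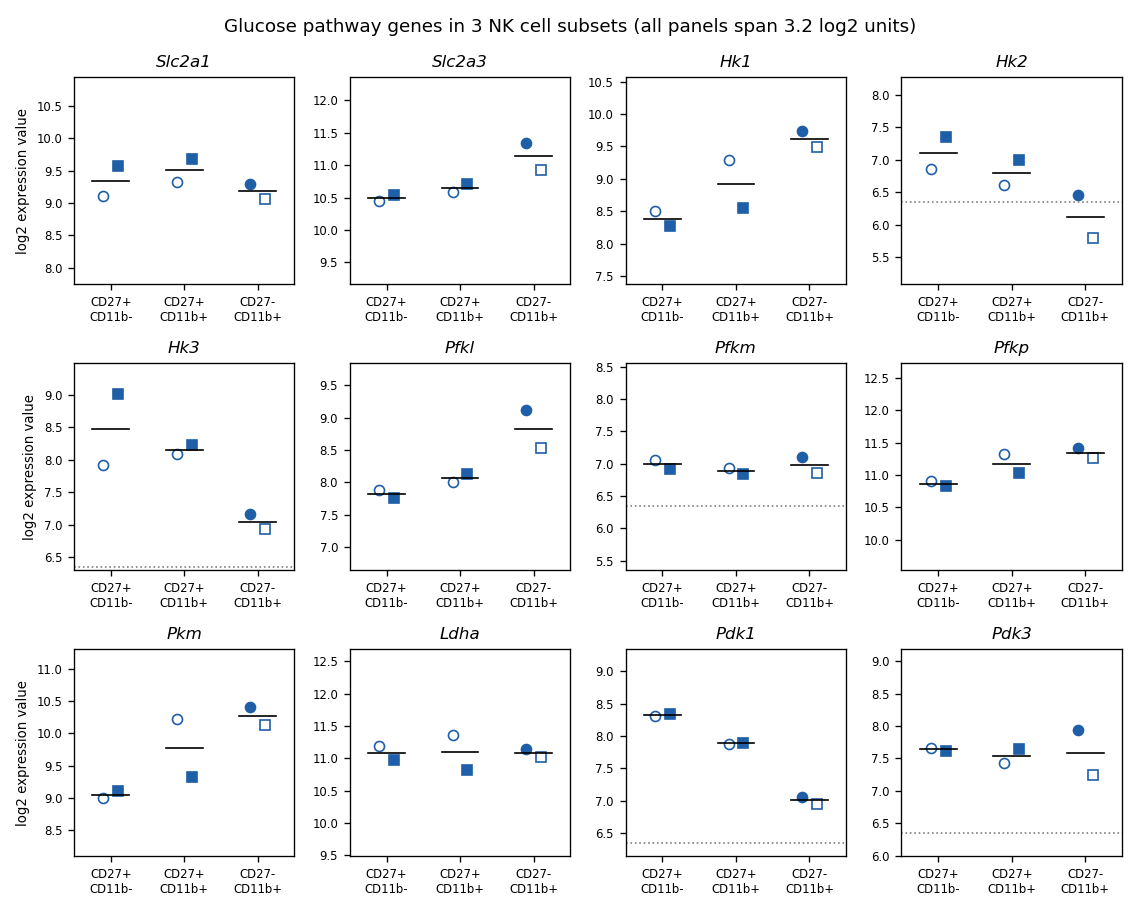
Log2 expression values (vertical axis) of 12 genes on the 6 arrays, by subset. Circles are replicate 1, squares are replicate 2, filled symbols are the on arrays, short lines are subset means, and the dotted line is the background level of 6.35 where it falls inside a panel, all panels spanning the same height. The pairs of Pdk1 step down from 8.31 and 8.34 to 7.07 and 6.96, Hk1 and Hk2 run in opposite directions, and Ldha and Pfkm stay level.

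The hexokinases trap glucose as glucose 6-phosphate. Hk1, the form found in most tissues and bound to mitochondria, read 8.50 and 8.27, then 9.28 and 8.55, then 9.73 and 9.49. The arrays of each subset lay above those of the one before. Hk1 rose by 1.23 (SE 0.25, adjusted p = 0.0393), a 2.34-fold change, from the first to the last subset, with 0.99 among off and 1.47 among on arrays. Its other probe set read 5.75 and 4.77, then 6.75 and 4.95, then 6.73 and 6.91, a difference of 1.56 that did not pass on its own (adjusted p = 0.296). The means of that probe set in the first and middle subsets, 5.26 and 5.85, were under background, so the size of its difference is not exact. On that probe set the low arrays, 4.77 and 4.95, were the same 2 with the weakest 5' signal for Gapdh. With 1 array left out Hk1 lost its call without either CD27+CD11b- array and without either CD27-CD11b+ array, at differences between 1.10 and 1.35.

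Hk2, the inducible hexokinase of activated and proliferating cells, read 6.87 and 7.35, then 6.60 and 6.99, then 6.45 and 5.79. Its mean went from 7.11 ± 0.34 to 6.12 ± 0.47, which is under background, and the arrays of the outer subsets did not overlap. The difference of -0.98 (SE 0.27) did not pass (adjusted p = 0.0951). Of 13 alternatives it passed in 1, the division as a block (adjusted p = 0.00701). Within the off and on arrays it was -1.07 and -0.90.

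Hk3, a hexokinase best known from myeloid cells, read 7.92 and 9.02, then 8.09 and 8.22, then 7.17 and 6.93 on the probe set used, whose name marks possible matches to other transcripts. The difference of -1.42 (SE 0.32, adjusted p = 0.0544) did not pass. It passed in 5 of 13 alternatives, among them the division as a block (adjusted p = 0.00950) and the mean of its probe sets (adjusted p = 0.0466), with adjusted p from 0.00483 to 0.235 over all 13. Without CD27+CD11b- replicate 1 the difference was -1.97 and passed, and without replicate 2 it was -0.87 and did not. The second probe set read 7.85 and 7.79, then 8.09 and 7.88, then 7.49 and 7.17, a smaller difference of -0.49. The monocyte and macrophage averages given above were higher on the on array of every subset, as was Hk3 on the probe set used. The second Hk3 probe set was lower on the on array in the first and middle subsets. The part of myeloid transcripts in these Hk3 values was not tested. Of the 19 myeloid markers 0 passed in the outer comparison in limma, beside 3.39% of all genes. At an unadjusted p under 0.05 there were 0, against 3437 of all 18193 genes. With the division as a block 5 passed, all higher in the last subset, while 965 of all 18193 genes passed higher. In sorted cells measured in bulk, fewer cells of a kind and less RNA per cell cannot be told apart.

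Phosphofructokinase commits sugar to glycolysis and has a liver, a muscle and a platelet form, encoded by Pfkl, Pfkm and Pfkp. Pfkl read 7.88 and 7.76, then 8.01 and 8.13, then 9.12 and 8.54. Each subset lay above the one before without overlap, as did Hk1 and Slc2a3, an order found for 3 of the 30 genes and 5.34% of all genes. Pfkl rose by 1.01 (SE 0.21, adjusted p = 0.0416), a 2.01-fold change. Its 2 other probe sets differed by 0.57 and 0.45 in the same direction and did not pass on their own. The rise was 0.66 among off and 1.36 among on arrays, and the call was lost when any one array was left out except CD27-CD11b+ replicate 2. Pfkm stayed between 6.84 and 7.10, with an outer interval of -0.37 to 0.35. Pfkp was 10.86 ± 0.06, 11.18 ± 0.21 and 11.34 ± 0.11, a difference of 0.47 (SE 0.16) that did not pass. Its probe sets disagreed, with 0.74 on one other and -0.79 on another. The probe set with 0.74 was above background on average only in the last subset, at 6.49.

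Around that step, Pfkfb3, which makes the activator fructose 2,6-bisphosphate, was 6.41 ± 0.05, 6.69 ± 0.11 and 6.65 ± 0.31, with an outer interval of -0.18 to 0.66. Pfkfb4, of the same family, and Fbp1, the opposing bisphosphatase of gluconeogenesis, were under background at 5.88 to 6.22 and 4.31 to 4.73. Aldoa, the main aldolase, was 10.30 ± 0.06, 10.24 ± 0.08 and 10.19 ± 0.37, and Aldoc, the brain form, stayed between 5.22 and 5.40. Of the 5 Aldoa probe sets 4 had a negative and 1 a positive outer difference, none beyond -0.32 or 0.22. Tpi1, triose phosphate isomerase, differed by 0.20 (interval -0.24 to 0.64).

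Glucose uptake genes gave no call. Slc2a1 encodes GLUT1, the transporter induced on activation, and read 9.12 and 9.58, then 9.32 and 9.68, then 9.29 and 9.07. Its arrays overlapped, and its interval was -0.65 to 0.32. The other probe sets gave -0.16 and 0.38, so the sign depended on the probe set. Slc2a3 encodes the high-affinity transporter GLUT3 and read 10.45 and 10.54, then 10.58 and 10.71, then 11.34 and 10.93. Its difference of 0.64 (SE 0.18, adjusted p = 0.0988) did not pass. Of 13 alternatives it passed in 1, the division as a block (adjusted p = 0.0394). The other Slc2a3 probe set above background gave 0.51, and the names of both mark possible matches to other transcripts.

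In lower glycolysis Pkm, pyruvate kinase, had the widest difference and missed the threshold. It read 9.0 and 9.10, then 10.22 and 9.33, then 10.41 and 10.13, a difference of 1.22 (SE 0.27, adjusted p = 0.0560). It passed with genes above background alone (adjusted p = 0.0422), a variance trend (adjusted p = 0.0410) and the outer subsets alone in the fit (adjusted p = 0.0149). Among the blocks it passed with the division (adjusted p = 0.0273) and with the replicate numbers (adjusted p = 0.0457). With 32 added to the linear values (adjusted p = 0.128) or the mean of all probe sets (adjusted p = 0.0621) it did not pass. With 1 array left out the difference lay between 1.08 and 1.36. Without either CD27+CD11b- array, or without either CD27-CD11b+ array, Pkm did not pass. Beside these values, the Gapdh 5' minus 3' differences were -2.93 and -3.35, then -2.62 and -3.05, then -2.67 and -2.60, and their part was not tested. A single probe set was named Pkm, and its splice forms were not told apart. Pgk1, phosphoglycerate kinase, was 11.76 ± 0.01, 11.38 ± 0.26 and 11.25 ± 0.37, with -0.51 (SE 0.21) on the probe set used, -0.49 on one other and -0.16 on the last, none passing. Pgam1, phosphoglycerate mutase, had an interval of -0.48 to 0.33. Eno3, the muscle enolase, was 7.02 ± 0.07, 7.30 ± 0.12 and 7.34 ± 0.04, with an interval of -0.02 to 0.66, and Eno2, the neuronal form, was under background.

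None of the 5 measured pentose phosphate genes passed, and none had an unadjusted p under 0.05. Pgd, the second NADPH-producing dehydrogenase of the branch, was 11.11 ± 0.12, 10.99 ± 0.08 and 11.05 ± 0.23, with an interval of -0.44 to 0.33. Pgls, the lactonase before it, had an interval of -0.61 to 0.27. In the non-oxidative part, transaldolase Taldo1 differed by 0.26 (interval -0.16 to 0.68), transketolase Tkt by -0.11 (-0.47 to 0.25) and Rpia, ribose 5-phosphate isomerase, by 0.14 (-0.26 to 0.53). All 5 intervals include 0 and lie within -0.61 to 0.68, which does not show that levels were equal.

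**Figure D3:**
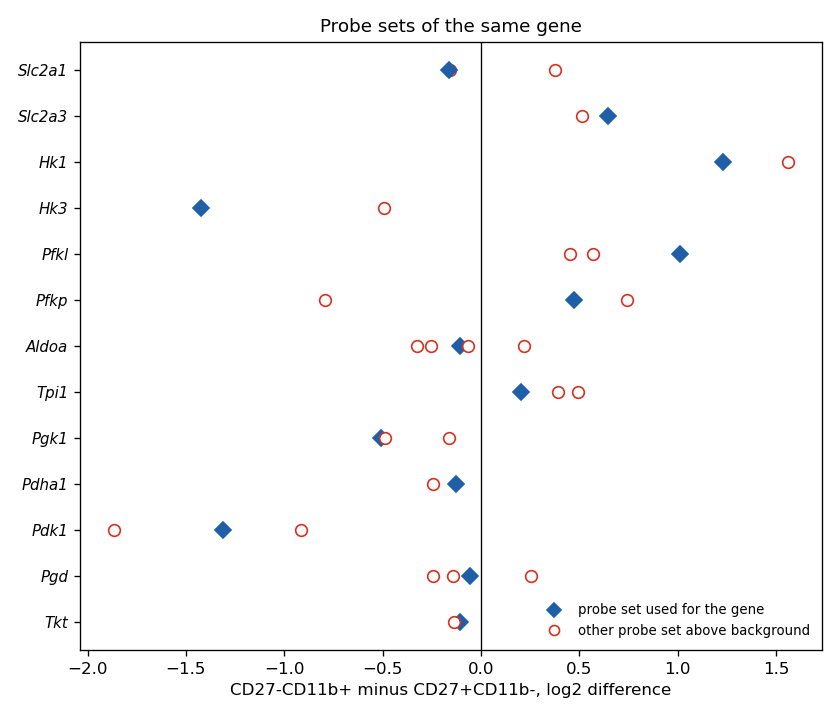
Outer differences (CD27-CD11b+ minus CD27+CD11b-, log2, horizontal axis) on every probe set above background in at least 1 subset, for the 13 genes with 2 or more of them. Diamonds are the probe set used for a gene and circles are the others. For 4 genes (Slc2a1, Pfkp, Aldoa and Pgd) the probe sets lie on both sides of 0, while those of Hk1, Pfkl and Pdk1 lie on 1 side. For Hk1, Pdk1 and Pfkp, 1 probe set was above background only in the subset where it was highest, so its side of 0 is no further support.

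Isoforms of a step were set against each other as a balance, the log2 difference of the 2 genes within an array. Levels of different probe sets cannot be compared, so only the change of a balance between subsets is read. Of 16 possible pairs 9 had both genes above background. The exact two-sided permutation test over 90 assignments of the arrays to the subsets cannot give a p under 0.0222. After adjustment over the 9 pairs 0 were under 0.05, while 5 had an unadjusted exact p under 0.05. Those 5 were Hk1 over Hk2, Hk1 over Hk3, Pfkl over Pfkm, Pfkm over Pfkp and Pdk1 over Pdk3. Some share a gene, and all but Pfkm over Pfkp hold Hk1, Pfkl or Pdk1, which passed above. No share over other pairs of genes was computed, so the 5 are not read as an excess. An adjusted p under 0.05 needs several of the 9 pairs at the smallest p at once, and 2 were there. The count of 0 therefore does not show that the balances were unchanged. The balance of Hk1 over Hk2 was 1.63 and 0.92, then 2.68 and 1.55, then 3.28 and 3.69, an outer difference of 2.21 (exact p = 0.0444, adjusted 0.0800). The outer subsets did not overlap, and the middle one overlapped the first. Hk2 was under background in the last subset on average, so the size of this balance there is not exact, nor is that of Hk2 over Hk3. Hk1 over Hk3 differed by 2.65 (exact p = 0.0444, adjusted 0.0800), and Hk2 over Hk3 by 0.44 with overlapping arrays (exact p = 0.200).

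Pfkl over Pfkm was 0.82 and 0.85, then 1.08 and 1.29, then 2.02 and 1.69, a difference of 1.02 with all 6 arrays in order (exact p = 0.0222, adjusted 0.0800). Pfkm over Pfkp differed by -0.48 (exact p = 0.0444, adjusted 0.0800) and Pfkl over Pfkp by 0.54 (exact p = 0.133). With the mean of all probe sets of a gene, Pfkl over Pfkm differed by 0.69, Pfkm over Pfkp by -0.15 and Pfkl over Pfkp by 0.54. Pdk1 over Pdk3 was 0.65 and 0.72, then 0.46 and 0.26, then -0.87 and -0.29, a difference of -1.26 with all 6 arrays in order (exact p = 0.0222, adjusted 0.0800). Slc2a1 over Slc2a3 differed by -0.81 (exact p = 0.0889), with 0.01 in the first and -0.82 in the second step. Ldha over Ldhb differed by 0.30 (exact p = 0.267). With the mean of all probe sets these outer differences were -0.27 and 0.20, a mean that takes in Slc2a3 and Ldhb probe sets under background.

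**Figure D4:**
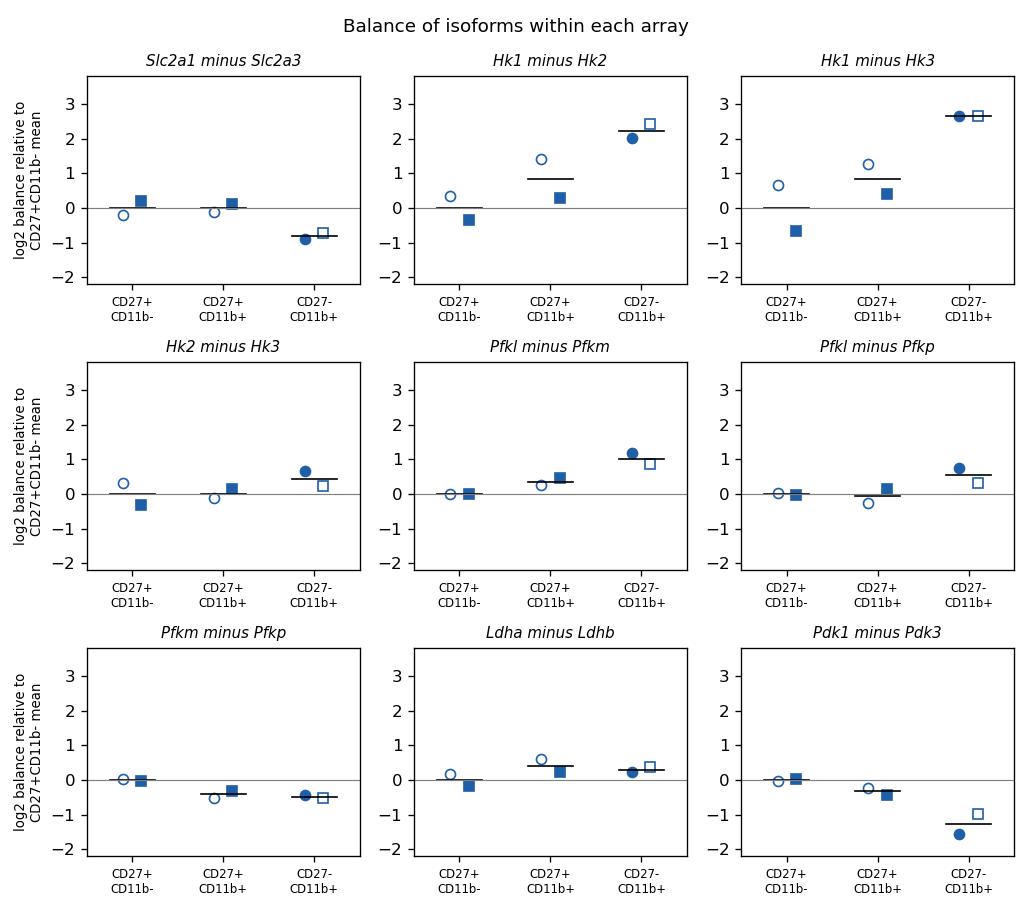
Balances of 9 isoform pairs (log2 value of the first gene minus the second within an array) by subset, each shown relative to its mean in CD27+CD11b-. Circles are replicate 1, squares are replicate 2, filled symbols are the on arrays and lines are subset means. The 2 balances of Hk1 over its sister genes shift most, by 2.21 and 2.65, while Hk2 over Hk3 and Ldha over Ldhb move by 0.44 and 0.30.

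The bases before the start sites of Pdk1, Hk1 and Pfkl, the genes that passed, and of Hk2, the inducible hexokinase, are shown because hypoxia-inducible factor sites are a known feature of glycolytic promoters. They are RefSeq sequences of build GRCm38.p6, 250 bases long, 5' to 3' along the gene and ending just before the start site. The windows are chr2:71872974-71873223 (plus strand) for Pdk1, chr10:62340422-62340671 (minus strand) for Hk1, chr6:82774455-82774704 (minus strand) for Hk2 and chr10:78009808-78010057 (minus strand) for Pfkl. Capitals mark the core letters ACGTG or GCGTG of the hypoxia response element on either strand, so that the reverse forms CACGT and CACGC are also in capitals.
Pdk1: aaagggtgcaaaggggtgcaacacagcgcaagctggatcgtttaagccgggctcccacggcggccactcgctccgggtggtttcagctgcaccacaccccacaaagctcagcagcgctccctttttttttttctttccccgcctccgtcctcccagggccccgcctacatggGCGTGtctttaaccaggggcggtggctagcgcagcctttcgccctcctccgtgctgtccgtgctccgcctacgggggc
Hk1: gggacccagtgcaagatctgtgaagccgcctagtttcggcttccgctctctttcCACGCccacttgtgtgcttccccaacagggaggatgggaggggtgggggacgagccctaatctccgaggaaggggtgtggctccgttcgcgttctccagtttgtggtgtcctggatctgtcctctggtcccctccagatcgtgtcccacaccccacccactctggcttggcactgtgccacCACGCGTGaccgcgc
Hk2: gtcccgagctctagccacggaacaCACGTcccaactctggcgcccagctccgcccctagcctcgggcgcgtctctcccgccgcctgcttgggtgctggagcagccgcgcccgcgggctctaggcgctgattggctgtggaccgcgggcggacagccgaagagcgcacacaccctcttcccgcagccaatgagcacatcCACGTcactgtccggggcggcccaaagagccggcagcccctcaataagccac
Pfkl: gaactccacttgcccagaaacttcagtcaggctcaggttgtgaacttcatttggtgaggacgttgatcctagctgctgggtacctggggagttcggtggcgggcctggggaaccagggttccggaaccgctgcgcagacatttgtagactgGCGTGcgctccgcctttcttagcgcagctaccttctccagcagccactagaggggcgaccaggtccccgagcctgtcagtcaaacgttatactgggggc
Pdk1 and Pfkl each hold 1 match, at -78 and -99 from the start site, Hk2 holds 2 and Hk1 holds 3, of which 2 overlap. Pdk1 and Hk1 each have another annotated start whose window holds no match and is not shown. Genes that moved in opposite directions thus both carried the letters. Of 33 listed genes with a window in the table, 29 had a match in at least 1, and 77.1% of their 48 windows held one, beside 38.6% of all 32851 windows. The E-box CACGTG, which overlaps the first form of the core, was in 4 of the 48 windows (8.33%) and in 6.02% of all. A match is a description of letters and does not show binding.

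Other genes of the pathway were read from 82 listed, of which 75 were measured and 52 were above background. In the outer comparison 0 passed higher and 1 passed lower, beside 2.24% and 1.15% of all genes. The one was Egln3, a prolyl hydroxylase that marks hypoxia-inducible factors for destruction. Egln3 read 6.17 and 6.28, then 5.55 and 5.92, then 4.79 and 4.93, and passed with an adjusted p of 0.00757. All 6 values were under the background level, so only the direction is given and not a size. By group, 0 of 23 other glucose genes, 0 of 17 genes of pyruvate entry and the citrate cycle and 0 of 10 other pentose genes passed, and 1 of 25 regulators. Their median outer differences were -0.07, 0.10, 0.26 and 0.11, against -0.0055 for all genes.

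Among regulators, Hif1a, the oxygen-sensing factor that drives glycolytic genes, was 10.72 ± 0.32, 10.63 ± 0.25 and 10.34 ± 0.19 and did not pass (-0.38, SE 0.21). Myc, a growth factor-induced activator of the same pathway, read 8.55 and 9.03, then 8.84 and 9.34, then 8.03 and 7.41. The CD27-CD11b+ arrays lay below all others, yet Myc did not pass in the outer comparison (-1.07, SE 0.27, adjusted p = 0.0798), and passed with the division as a block (adjusted p = 0.00416). Srebf1, a sterol-responsive factor, differed by 0.12 (interval -0.30 to 0.53). Txnip, an inhibitor of glucose uptake, differed by 0.60 (SE 0.27, adjusted p = 0.279), and passed with the division as a block (adjusted p = 0.0387). Pdk4, the kinase of the fasting response, stayed between 3.28 and 3.40, under background.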

How the data were processed

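Total RNA from 6 sorted NK cell samples was hybridised to Affymetrix mouse expression arrays, per the labels. The deposited table holds log2 values, a scale read from their range (2.60 to 14.72), made by the authors with RMA, per the submitters' processing notes. Its version is not given in the sources used here. Because RMA gives all arrays one distribution, a shift common to most genes cannot be seen, and dim genes show smaller differences. The medians of the 6 arrays lay between 5.26 and 5.36. Signal over background and the number of arrays limit the precision.

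Of 45101 probe sets, 64 controls were left out. Of the rest, 34945 had 1 gene symbol, 932 several and 9160 none, and 34741 of the first matched RefSeq gene identifiers, with 0 symbols updated. Probe sets with several symbols named no gene. Each of 18193 genes was fitted in limma 3.58.1 (R 4.3.3) to the 6 arrays, with a mean for every subset (3 residual and 4.93 prior degrees of freedom), with Benjamini-Hochberg adjustment over all genes. The fit was tested on simulated data. Isoform balances were compared by exact permutation. Every listed gene is named, with pathway genes that passed and 5 regulators fixed by name.

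The members, lists and the division of the arrays were chosen with earlier results of these data known. Alternatives were another rule for probe sets, a filter on dim genes, an added constant of 32, a variance trend, fewer subsets in the fit, blocks and leaving out arrays. Promoter windows were read from the RefSeq table in the gene's direction.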

Additional observations from a re-analysis of the deposited data

How the results depend on the processing

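Of the 3 genes that passed in the outer comparison, Pdk1 kept its call in all 13 alternatives that gave each gene 1 value (differences -1.37 to -1.07, adjusted p 0.00151 to 0.0413), Hk1 in 7 (adjusted p 0.0139 to 0.260) and Pfkl in 6 (adjusted p 0.0152 to 0.211). No called value changed sign. For the outer comparison, the fit of the outer subsets alone and the fits without either middle array gave the same values. The 13 alternatives thus count 1 result more than once. The count of 3 became 1 when every probe set was tested on its own (which raises the number of tests to 45037), 1 with 32 added to the linear values, 5 with genes above background alone (8818 tests), 5 with a variance trend and 7 with the division of the arrays as a block. Leaving out 1 array gave 1 to 3. With the replicate block, the numbers in the titles, it was 4 and no other count changed. Those numbers did not pair the arrays across all 3 subsets. Deviations of same-numbered arrays correlated at 0.62 between the first and middle subsets. With the last subset the correlation was -0.25 for the first and -0.14 for the middle. The count of 1 in the F test over the subsets became 0 with the mean of all probe sets, 5 with the division as a block, and 0 to 3 with 1 array left out: 0 without either array of the last subset, 2 without replicate 1 of the first subset and 3 without either array of the middle one. The second step's count of 0 became 1 with the division as a block. The list's median moved with the division: in the second step it was -0.18 among off and 0.23 among on arrays, and in the outer comparison 0.18 among on arrays. The median over all genes moved in the same direction, from -0.04 to 0.09 in the second step and from -0.05 to 0.07 in the outer comparison. With 1 array left out the list's medians in these comparisons ranged from -0.076 to 0.20 and from -0.12 to 0.12. No isoform balance had an adjusted p under 0.05 in the alternatives, but the exact test cannot give less than 0.0556 with the division as a block or 0.0667 with a middle array left out, so these say nothing of stability. In the other alternatives an adjusted p under 0.05 needs several pairs at the smallest possible exact p at once, so their count of 0 says little as well. Within 1 side of the division there is 1 array a subset, so no test was run there. The cause of these shifts was not tested beyond the numbers of tests given.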

Other observations

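Beyond Egln3, 8 of the 75 other pathway genes passed in the outer comparison when the division of the arrays was a block, beside 8.13% of all genes, and the 4 described here were chosen after their values were seen. Pdp1 encodes the phosphatase that reverses the phosphorylation of pyruvate dehydrogenase by PDK enzymes. It read 6.87 and 7.54 in CD27+CD11b-, 7.14 and 7.54 in CD27+CD11b+ and 8.11 and 7.90 in CD27-CD11b+, a difference of 0.80 (adjusted p = 0.131, and 0.0212 with the block), opposite in sign to Pdk1. Mpc1, a subunit of the mitochondrial pyruvate carrier, read 7.75 and 7.97, then 8.25 and 8.40, then 8.78 and 8.30, a difference of 0.68 (adjusted p = 0.110, and 0.0313 with the block). Idh1, the cytosolic NADP-dependent isocitrate dehydrogenase, differed by 1.11 (adjusted p = 0.100, and 0.00789 with the block). Slc2a6, a glucose transporter family member, differed by -1.11 (adjusted p = 0.202, and 0.00505 with the block). In every subset it was higher on the on array, at 7.38, 7.28 and 6.11, than on the off array, at 6.40, 6.26 and 5.44. The monocyte and macrophage list was so too, and its part was not tested. The Slc2a6 mean in CD27-CD11b+, 5.78, was under background, so the size of the Slc2a6 difference is not exact. Because the block was read from the data, its adjusted p-values can be smaller than they should be.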
